A study of Nothobranchius furzeri with 6 samples.

Results

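The neurotransmitter transporters of the killifish retina were taken as every entry of the gene table whose name, ignoring case, starts with SLC1A, SLC6A, SLC17A, SLC18A or SLC32A. This rule gave 63 of 24989 entries, and each of the 63 was detected with at least 1 transcript. The species, Nothobranchius furzeri, is the African turquoise killifish, a fish with a naturally short life, and the retinas were those of wild-type GRZ-AD females, an inbred strain. Single-cell RNA sequencing (10x Genomics, 3′ ends) covered fish aged 6, 12 and 18 weeks in 6 libraries, 2 for every age. A library pooled 3 fish at 6 weeks and 2 fish at 12 or 18 weeks, so the library is the replicate and not the fish. No treatment or mutation was involved, the pigment epithelium was removed, and the tissue was dissociated with papain.

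A neuron that releases a transmitter first loads it into vesicles, and the released transmitter is then cleared by carriers in the plasma membrane of neurons and glia. The SLC17A6 to SLC17A8 carriers load glutamate, SLC32A1 loads GABA and glycine, SLC18A2 loads monoamines and SLC18A3 loads acetylcholine. On the plasma membrane, SLC1A carriers take up glutamate, and the SLC6A family takes up GABA, glycine, monoamines, taurine, creatine and amino acids. In the vertebrate retina photoreceptors, bipolar cells and ganglion cells signal with glutamate, most amacrine cells with GABA or glycine, and Müller glia clear glutamate.

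The 6 libraries held 4804 to 7235 cells and 17393089 to 24317894 unique molecular identifiers (UMIs, counted transcripts), with a median of 2082 to 2574.5 UMIs per cell. The authors' annotation placed the 37243 cells in 18 classes, of which 16 had at least 10 cells in every library and were tested. Bipolar cells were the largest class, with 17770 cells, and starburst amacrine cells the smallest tested one, with 197 cells. Of 47 marker entries outside the transporter families, 39 were highest in the class they mark. The exceptions included CHAT(2OF2), GAD1A, GLUL(1OF2), ISL1, PAX6(2OF2) and both TFAP2A entries. ISL1 was highest in the class the authors named Vip neurons. Barcode sequences shared with another library marked 342 cells, and 0 of these had equal UMI totals. The authors named some classes with members of these families, SLC6A9, SLC32A1 and SLC17A6B among them, so levels across classes are described here without a test.

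Levels are UMIs per 1000000 UMIs (CPM) of the summed cells of a class, given as mean ± SD over the 6 libraries. They are used here to compare one carrier between classes and not one carrier with another. A mean of at least 100 CPM in some class was reached by 24 of the 63 carriers, and at least 10 CPM by 44. The other 19 stayed under 10 CPM in every tested class. The class with the highest level was the same for 61 of 63 carriers when the counts of all libraries were pooled. By the share of cells with a UMI after thinning each cell to 1000 UMIs it was the same for 50 of the 63, and for 23 of the 24 carriers at 100 CPM or more. By that share SLC6A6A was highest in Vip neurons, SLC1A4 and SLC6A15 in starburst amacrine cells, SLC18A1 in PVALB5 amacrine cells, SLC1A1 XLOC_015687 in glycinergic amacrine cells and SLC1A8A XLOC_001513 in UV-cones, and the other 7 that differed averaged under 5 CPM in every tested class. All carriers together made up 8651 ± 401 CPM in GABAergic amacrine cells, the highest sum, and 645 ± 64.0 CPM in differentiating cells, the lowest.

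**Figure D1:**
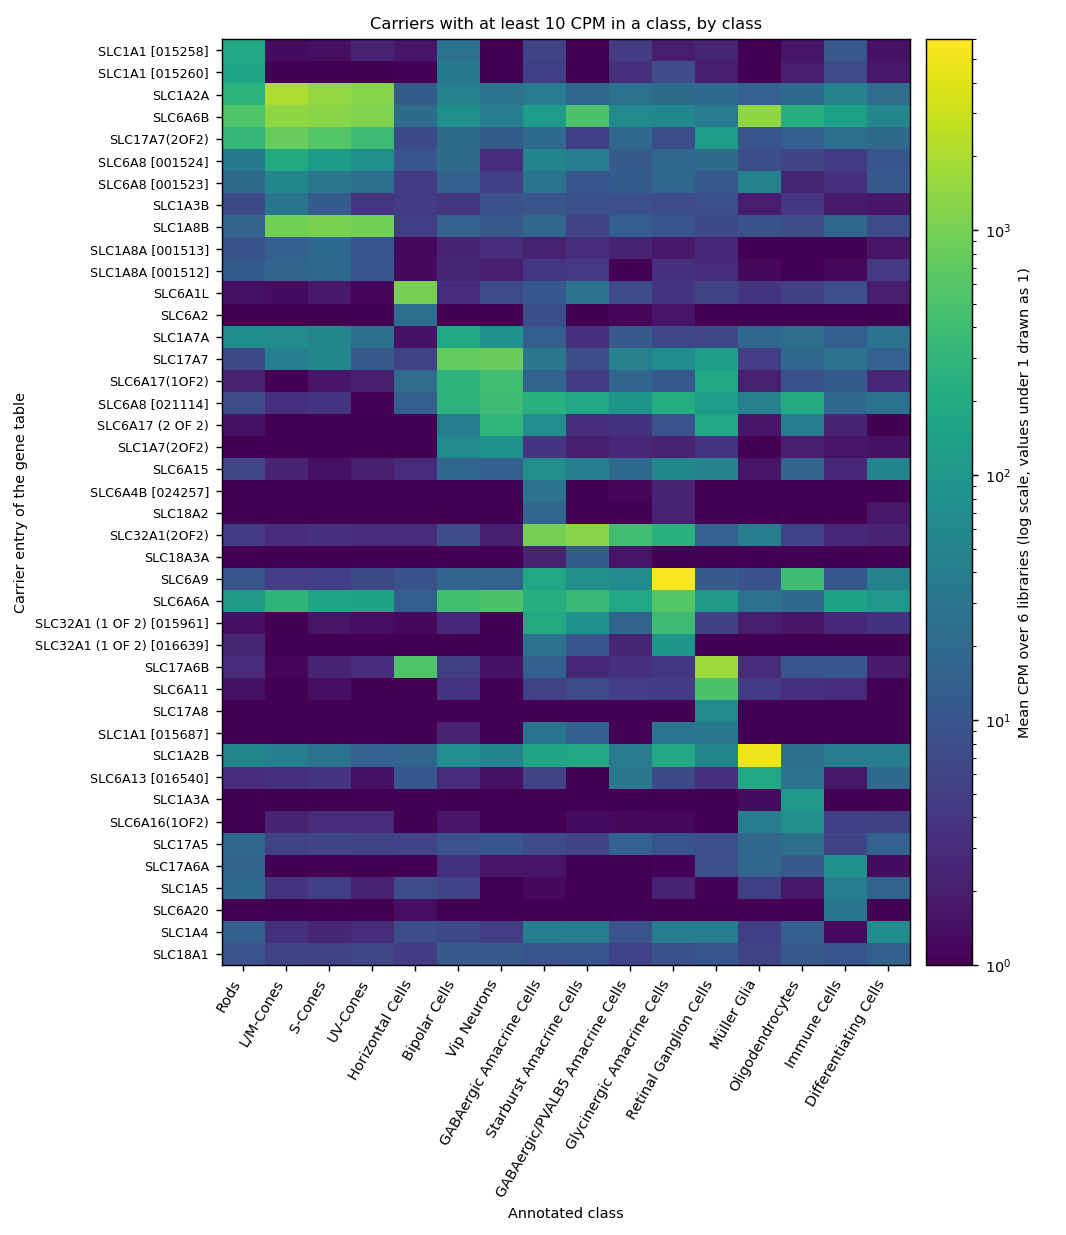
Mean level over 6 libraries of carriers with at least 10 CPM in a class (rows) in the 16 tested classes (columns), with colour on a log scale of CPM. Brighter (yellow) means higher, and most rows are brightest in a single class or a block of related classes, such as SLC6A9 in glycinergic amacrine cells at 5779 CPM, SLC1A2B in Müller glia at 4776 CPM and SLC17A8 in retinal ganglion cells at 61.9 CPM.

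Transcripts of the SLC1A2 glutamate carriers were divided mainly between Müller glia and photoreceptors by gene copy. SLC1A2B, one of a pair of copies of the main glial glutamate carrier of mammals (EAAT2), stood at 4776 ± 607 CPM in Müller glia, from 3867 to 5539 CPM over the libraries. Its next class was glycinergic amacrine cells with 191 ± 43.1 CPM. The other copy, SLC1A2A, stood at 2091 ± 160 CPM in L/M-cones, 1441 ± 116 CPM in S-cones, 1231 ± 167 CPM in UV-cones and 275 ± 53.9 CPM in rods. The lowest L/M-cone library had 1916 CPM of SLC1A2A and the highest S-cone library 1619 CPM, so these neighbours did not overlap, whereas the S- and UV-cone ranges did.

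SLC1A8B, a glutamate carrier of fish, was also a cone gene, with 1035 ± 175 CPM in S-cones, 949 ± 126 CPM in L/M-cones and 942 ± 167 CPM in UV-cones, and these ranges overlapped. The SLC1A8A entries were highest in S-cones as well, with 18.4 ± 9.0 CPM for XLOC_001512 and 19.5 ± 6.8 CPM for XLOC_001513. SLC1A1, the neuronal glutamate carrier EAAT3, has 4 entries under that name, and 2 of them were highest in rods. XLOC_015258 had 194 ± 42.6 CPM in rods and 25.6 ± 5.2 CPM in bipolar cells, and XLOC_015260 had 165 ± 46.7 CPM in rods and 34.2 ± 10.5 CPM in bipolar cells. A further SLC1A1 entry, XLOC_015687, was spread over ganglion cells at 32.5 ± 4.6 CPM, glycinergic amacrine cells at 30.9 ± 10.6 CPM and GABAergic amacrine cells at 29.0 ± 5.0 CPM, and XLOC_018804 stayed under 1 CPM.

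SLC1A7 (EAAT5), known in mammals from photoreceptors and bipolar cells, was highest in bipolar cells or Vip neurons in both copies. SLC1A7A stood at 186 ± 14.5 CPM in bipolar cells, 84.6 ± 23.8 CPM in Vip neurons and 69.8 ± 17.2 CPM in rods. SLC1A7(2OF2) stood at 85.4 ± 22.3 CPM in Vip neurons and 61.8 ± 19.2 CPM in bipolar cells, with overlapping ranges. SLC1A3, the Müller glial carrier GLAST (EAAT1) of mammals, was low in Müller glia here. SLC1A3A stood at 106 ± 29.1 CPM in oligodendrocytes and 1.3 ± 0.87 CPM in Müller glia, and 87.5% of its UMIs lay in oligodendrocytes. SLC1A3B was highest in L/M-cones at 29.2 ± 4.1 CPM. Among the neutral amino acid carriers, SLC1A4 was highest in differentiating cells at 69.0 ± 10.6 CPM and SLC1A5 in immune cells at 42.7 ± 15.3 CPM. Both SLC1A6 entries stayed under 2 CPM.

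The vesicular glutamate carriers differed in the glutamatergic class where each was highest. SLC17A7(2OF2), a VGLUT1 copy, was highest in photoreceptors, with 794 ± 76.8 CPM in L/M-cones, 592 ± 75.6 CPM in S-cones, 385 ± 61.2 CPM in UV-cones and 325 ± 43.7 CPM in rods. It also had 119 ± 23.1 CPM in ganglion cells. The other copy, SLC17A7, had 816 ± 99.1 CPM in Vip neurons and 743 ± 56.6 CPM in bipolar cells, with overlapping ranges, and 131 ± 19.5 CPM in ganglion cells. SLC17A6B (VGLUT2) stood at 1667 ± 83.7 CPM in retinal ganglion cells, from 1536 to 1800 CPM, and it was next highest in horizontal cells at 548 ± 26.6 CPM. Its copy SLC17A6A was highest in immune cells at 80.7 ± 25.9 CPM.

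SLC17A8 (VGLUT3), which mammals use in an amacrine cell type, was found here in ganglion cells. It stood at 61.9 ± 8.5 CPM there and at no more than 0.57 CPM on average in any other tested class. Of its 430 UMIs in all cells, 96.5% lay in ganglion cells, where 272 of 1129 cells (24.1%) had at least 1, against 0.0272% of rods. Median depth was 5058 to 6754 UMIs per ganglion cell and 1740 to 2774.5 UMIs per rod over the libraries. The lysosomal carrier SLC17A5 was highest in oligodendrocytes at 25.1 ± 10.3 CPM, and the vesicular nucleotide carrier SLC17A9B in immune cells at 4.6 ± 3.5 CPM.

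GABA carriers of the SLC6A family differed between classes by gene. SLC6A1L marked horizontal cells. It stood at 1017 ± 112 CPM there and at 26.7 ± 20.8 CPM in the next class, starburst amacrine cells. Its neighbour in the RefSeq gene order, SLC6A12, with 0 protein-coding genes between them, was highest in horizontal cells too, at 6.9 ± 2.8 CPM. SLC6A11, the GABA carrier GAT-3, stood at 537 ± 59.9 CPM in ganglion cells and at 7.5 ± 8.0 CPM in the next class. It was found in 643 of 1129 ganglion cells (57.0%) and 0.434% of rods, and 420 cells with at least 3 UMIs held 91.1% of its ganglion cell UMIs. SLC6A13, XLOC_016540, named for the GABA carrier GAT-2 and called slc6a22.1 in RefSeq, was the Müller glial member, with 186 ± 43.4 CPM in Müller glia and 31.7 ± 19.5 CPM in PVALB5 amacrine cells. The other 3 entries named SLC6A13 or SLC6A13(1OF2) stayed under 2 CPM.

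SLC6A9, the glycine carrier GlyT1, was highest in the glycinergic class. It stood at 5779 ± 1906 CPM in glycinergic amacrine cells, with libraries from 3250 to 9036 CPM, and at 407 ± 150 CPM in oligodendrocytes. The neuronal glycine carrier GlyT2, SLC6A5, reached 3.6 ± 1.7 CPM in ganglion cells, its highest class, on 25 UMIs. The vesicular inhibitory carrier SLC32A1 had 3 entries. SLC32A1(2OF2) stood at 1273 ± 216 CPM in starburst, 1002 ± 90.1 CPM in GABAergic, 409.6 ± 75.1 CPM in PVALB5 and 252 ± 96.5 CPM in glycinergic amacrine cells. The entries both named SLC32A1 (1 OF 2) ran in another order, with XLOC_015961 at 402 ± 81.6 CPM in glycinergic, 201 ± 43.6 CPM in GABAergic and 83.6 ± 16.7 CPM in starburst amacrine cells, and XLOC_016639 at 98.4 ± 21.4 CPM in glycinergic and 28.6 ± 10.3 CPM in GABAergic amacrine cells.

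Taurine and creatine carriers were found in many classes. SLC6A6B stood at 1426 ± 230 CPM in L/M-cones, 1421 ± 206 CPM in Müller glia, 1300 ± 252 CPM in S-cones and 1120 ± 278 CPM in UV-cones, with overlapping ranges. SLC6A6A reached at least 100 CPM in 13 of the 16 classes and was highest in glycinergic amacrine cells at 587 ± 131 CPM, followed by Vip neurons at 532 ± 82.7 CPM and bipolar cells at 431 ± 67.7 CPM. Of the creatine carrier entries named SLC6A8, XLOC_001524 was a cone gene, with 195 ± 24.4 CPM in L/M-cones and 114 ± 13.7 CPM in S-cones. XLOC_001523 was highest in L/M-cones at 53.5 ± 7.9 CPM. XLOC_021114, which RefSeq calls si:ch211-117c9.5, had 393 ± 35.5 CPM in Vip neurons, 275 ± 22.6 CPM in bipolar cells, 254 ± 44.4 CPM in GABAergic amacrine cells and 202 ± 23.8 CPM in oligodendrocytes.

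Among the neutral amino acid carriers of the SLC6A family, SLC6A17(1OF2), a copy of a carrier that in mammals sits on synaptic vesicles, stood at 416 ± 33.5 CPM in Vip neurons, 276 ± 18.5 CPM in bipolar cells and 178 ± 24.2 CPM in ganglion cells. SLC6A17 (2 OF 2) stood at 307 ± 55.7 CPM in Vip neurons and 186 ± 26.3 CPM in ganglion cells, but at 40.2 ± 2.5 CPM in bipolar cells. SLC6A15 was highest in GABAergic amacrine cells at 75.7 ± 8.5 CPM. The orphan SLC6A16(1OF2) was highest in oligodendrocytes at 76.8 ± 65.3 CPM, and SLC6A20, a proline carrier, in immune cells at 29.2 ± 9.3 CPM. SLC6A7, SLC6A14, SLC6A16(2OF2), SLC6A18, SLC6A19 and SLC6A19(2OF2) stayed under 10 CPM.

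The monoamine carriers averaged no more than 28.3 CPM in any tested class. The serotonin carrier SLC6A4B, XLOC_024257, stood at 28.3 ± 24.0 CPM in GABAergic amacrine cells, with libraries from 2.1 to 52.3 CPM. It was found in 29 of 1815 cells (1.6%), and 19 cells with at least 3 UMIs held 93.2% of its 222 UMIs in that class, up to 27 in a single cell. The vesicular monoamine carrier SLC18A2 stood at 18.0 ± 7.5 CPM in the same class and was found in 82 of 1815 cells (4.52%), against 0.0543% of rods. Median depth was 2336 to 3682.5 UMIs per GABAergic amacrine cell over the libraries. The noradrenaline carrier SLC6A2 was highest in horizontal cells at 23.4 ± 11.0 CPM, with 306 UMIs in 218 of 2717 cells (8.02%), against 0.0815% of rods. Median depth in horizontal cells was 3859.5 to 6497 UMIs. The dopamine carrier SLC6A3 had 110 UMIs in the whole series and reached 2.0 ± 2.8 CPM in glycinergic amacrine cells. SLC18A3A, the vesicular acetylcholine carrier, was highest in starburst amacrine cells at 12.9 ± 11.1 CPM on 14 UMIs. The marker CHAT, the enzyme that makes acetylcholine, was highest in that class as well, at 2320 CPM. Its copy CHAT(2OF2) was highest in PVALB5 amacrine cells at 2335 CPM, against 674 CPM in starburst amacrine cells. SLC18A1, the other vesicular monoamine carrier, was highest in differentiating cells at 14.4 ± 6.0 CPM, and its 1083 UMIs were spread over 1031 cells of the series. Levels on so few UMIs carry a large counting error, and at this depth a carrier listed near 0 may have been missed.

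The authors' clusters divided the whole bipolar class into 13 parts of 425 to 3195 cells, and the carriers differed among them. The finer subclustering of bipolar cells in the paper was not used here. SLC17A7, the glutamate loader of bipolar cells, was detected in all 13, from 257 ± 36.3 CPM in cluster 14 to 1163 ± 93.9 CPM in cluster 19. Cluster 12 stood out for several carriers. It had the highest level of SLC6A17 (2 OF 2), at 252 ± 44.3 CPM, against 89.2 ± 4.9 CPM in cluster 19 and 3.6 ± 5.1 CPM in cluster 16. It also had the highest level of SLC6A17(1OF2), at 419 ± 63.0 CPM, and of the taurine carrier SLC6A6A, at 930 ± 183 CPM. The next cluster for SLC6A6A, cluster 16, had 541 ± 84.0 CPM, and the libraries of the pair did not overlap.

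The EAAT5 copies differed across the clusters. SLC1A7A was highest in cluster 13 at 316 ± 39.3 CPM and cluster 12 at 294 ± 68.4 CPM, and lowest in cluster 14 at 29.9 ± 12.3 CPM. SLC1A7(2OF2) was highest in cluster 6 at 132 ± 41.1 CPM and lowest in cluster 9 at 15.7 ± 5.9 CPM. The cone copy SLC1A2A reached 145 ± 41.5 CPM in cluster 16 and 62.2 ± 33.0 CPM in cluster 9, the next. The serotonin carrier entries SLC6A4A, at 21.9 ± 9.6 CPM, and SLC6A4B, XLOC_001920, at 16.7 ± 2.8 CPM, were found in cluster 13 above all. Over the other 12 clusters SLC6A4A stayed at or below 2.1 CPM and SLC6A4B at or below 1.1 CPM. The second of these is called slc6a4a in RefSeq, and reads of near-identical copies may have been divided between them.

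**Figure D2:**
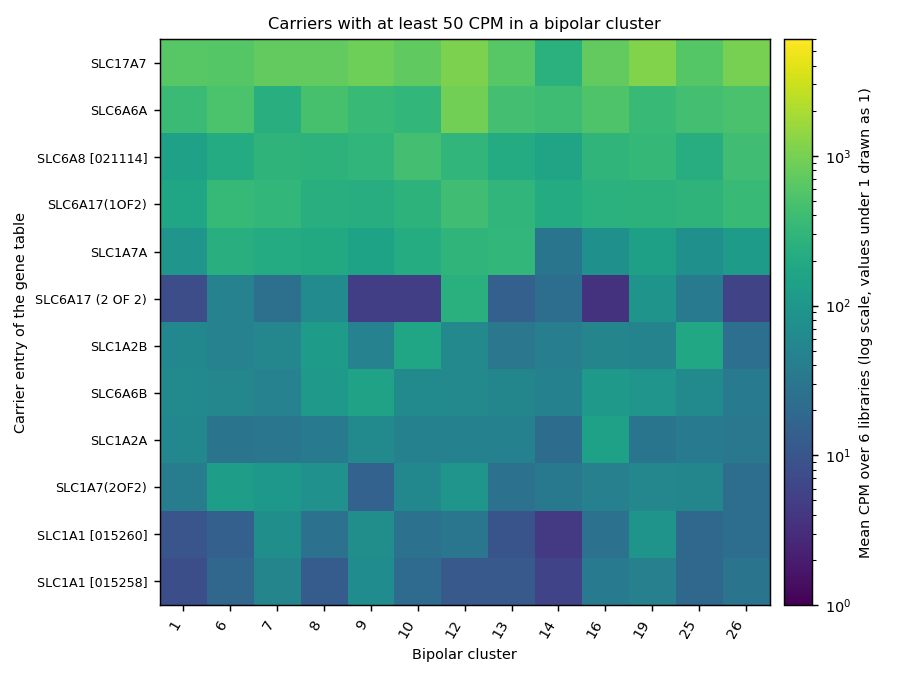
Mean level over 6 libraries of the 12 carriers with at least 50 CPM in a bipolar cluster (rows) in the 13 bipolar clusters (columns), with colour on a log scale of CPM. Brighter means higher: SLC17A7 is bright in every cluster, whereas SLC6A17 (2 OF 2) is bright in cluster 12 at 252 CPM and dark in cluster 16 at 3.6 CPM.

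Age was compared on summed counts per library, with a change called at an adjusted p under 5% over all genes of the class. Of the 63 carriers, 48 passed the filter on low counts in at least 1 class, which gave 283 pairs of a carrier and a class. At 18 against 6 weeks 10 pairs rose and 10 fell, 7.07% of those tested, in 14 carriers and 7 classes. Over all genes 2.36% of 138175 pairs were called, 1.08% higher and 1.28% lower. The median log2 fold change was -0.03 over the 283 carrier pairs and 0.001 over all pairs. Calls were made in bipolar cells, horizontal cells, rods, Müller glia, oligodendrocytes, L/M-cones and differentiating cells. In bipolar cells 4 of 39 tested carriers rose and 5 fell (23.1% called), against 6.94% of all genes in that class, of which 3.17% were higher and 3.76% lower. All 20 pairs had 18-week libraries on one side of both 6-week libraries. The pairs were chosen by a test on these same values, so this adds no support to the calls. Replicates are pools of fish, so p-values measure the spread between these pools.

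The abundant carriers were also followed in the class where each was highest. Among the 24 carriers with at least 100 CPM, 1 passed the test in its highest class at 18 against 6 weeks, beside 2.36% of all pairs, with 5 at an unadjusted p under 0.05 and log2 fold changes from -0.39 to 0.76 (median 0.13). SLC17A6B in ganglion cells averaged 1736 ± 90.0 CPM at 18 weeks and 1602 ± 93.8 CPM at 6 weeks (SD, 2 libraries each; log2 fold change 0.03, adjusted p = 0.972). The largest difference was that of SLC6A9 in glycinergic amacrine cells, which averaged 7581 ± 2058 CPM at 18 weeks and 4012 ± 1079 CPM at 6 weeks. With 2 libraries per age it did not pass the test (0.76 ± 0.46, SE, adjusted p = 0.557). SLC1A2B in Müller glia averaged 4115 ± 351 CPM at 18 weeks and 5387 ± 214 CPM at 6 weeks (-0.39 ± 0.14, adjusted p = 0.119).

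**Figure D3:**
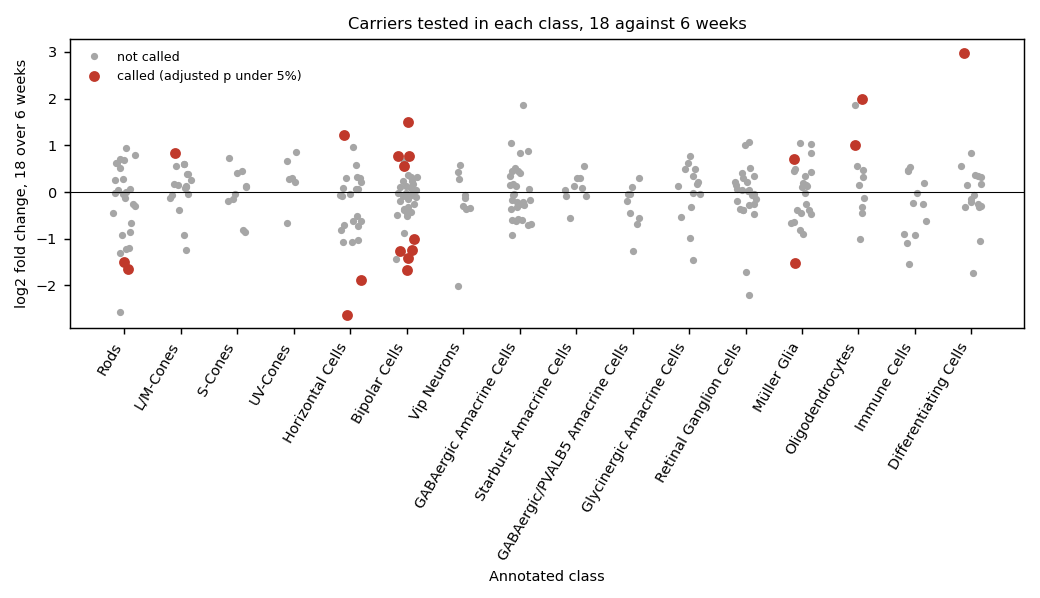
Log2 fold change at 18 over 6 weeks of each tested carrier (points) in each of the 16 classes (columns), with pairs called at an adjusted p under 5% in red. The 20 red points lie in 7 classes, 9 of them in bipolar cells, and the points of each class scatter on both sides of 0.

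The one of these 24 that rose in its highest class was SLC6A13, XLOC_016540, in Müller glia. It had 124 and 144 CPM at 6 weeks, 186 and 224 CPM at 12 weeks, and 217 and 222 CPM at 18 weeks (0.71 ± 0.16 on the log2 scale at 18 over 6 weeks, adjusted p = 0.0156). Its call was lost when either 18-week library or 6-week library 1 was left out (adjusted p of 0.0829, 0.114 and 0.100). The same entry rose in differentiating cells, with 6.1 and 5.7 CPM at 6 weeks, 12.3 and 12.3 CPM at 12 weeks, and 63.5 and 18.8 CPM at 18 weeks (2.98 ± 0.50, adjusted p = 0.00726). This second rise rested on 18-week library 1, without which it was 1.58 with adjusted p = 0.536, and it was also lost without 6-week library 2 (adjusted p = 0.0549). The Müller marker list of 6 entries summed to 499 to 657 CPM in differentiating cells at 18 weeks and 397 to 547 CPM at 6 weeks, which overlap. Without GLUL (2 OF 2), its most abundant entry, it had 264 and 185 CPM at 18 weeks and 136 and 214 CPM at 6 weeks. RLBP1A overlapped too, with 231 and 151 CPM at 18 weeks and 118 and 199 CPM at 6 weeks. The scarcer AQP1A.1, XLOC_015295, did not overlap, with 25.4 and 25.1 CPM at 18 weeks and 14.0 and 8.2 CPM at 6 weeks. Nor did LHX2B, with 7.1 and 9.4 CPM at 18 weeks and 3.5 and 5.1 CPM at 6 weeks. The part of these markers in the result was not tested.

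SLC6A2, the noradrenaline carrier, rose in horizontal cells, with 16.7 and 11.6 CPM at 6 weeks, 26.7 and 16.6 CPM at 12 weeks, and 26.4 and 42.3 CPM at 18 weeks (1.22 ± 0.29, adjusted p = 0.0267). The 12-week libraries overlapped both other ages, and the call was lost without 18-week library 2 or 6-week library 2. With a library left out the log2 fold change ran from 0.86 to 1.51. The call was also lost when each cell was thinned to 1000 UMIs.

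In oligodendrocytes the orphan SLC6A16(1OF2) rose, with 40.4 and 24.5 CPM at 6 weeks, 55.1 and 47.4 CPM at 12 weeks, and 91.2 and 202 CPM at 18 weeks (1.99 ± 0.40, adjusted p = 0.0212). Without 18-week library 2, its highest, the change was 1.46 with adjusted p = 0.139. The glycine carrier SLC6A9 rose in the same class, with 351 and 216 CPM at 6 weeks, 333 and 364 CPM at 12 weeks, and 590 and 585 CPM at 18 weeks (1.00 ± 0.22, adjusted p = 0.0353). That call was lost without either 18-week library or 6-week library 2 (adjusted p from 0.116 to 0.162). The oligodendrocyte class held 26 to 85 cells per library. Markers of Müller glia summed to 2454 to 2511 CPM in it at 18 weeks and 1171 to 1547 CPM at 6 weeks, and their part in the rises was not tested. Most of this sum was GLUL (2 OF 2), glutamine synthetase, with 2207 and 2285 CPM at 18 weeks and 1371 and 1022 CPM at 6 weeks. The other 5 entries summed to 304 and 169 CPM at 18 weeks and 177 and 149 CPM at 6 weeks, which overlap, and AQP1A.1, XLOC_015295, had 22.8 and 32.8 CPM at 18 weeks and 20.2 and 19.6 CPM at 6 weeks. The glycinergic amacrine markers, 2 entries, summed to 109 to 131 CPM at 18 weeks and 106 to 130 CPM at 6 weeks.

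The taurine carrier SLC6A6A rose in L/M-cones, with 237 and 193 CPM at 6 weeks, 262 and 223 CPM at 12 weeks, and 399 and 385 CPM at 18 weeks (0.84 ± 0.17, adjusted p = 0.0113). Both 18-week libraries lay above the other 4. The call was lost without either 18-week library or 6-week library 2 (adjusted p from 0.0942 to 0.151).

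In bipolar cells the rises were all of SLC1A glutamate carriers, but other SLC1A carriers tested there were not called. SLC1A7(2OF2), an EAAT5 copy, had 47.8 and 47.9 CPM at 6 weeks, 61.4 and 43.4 CPM at 12 weeks, and 82.2 and 88.2 CPM at 18 weeks (0.76 ± 0.15, adjusted p = 0.00973). The other EAAT5 copy, SLC1A7A, did not pass the test. It averaged 198 ± 18.3 CPM at 18 weeks and 174 ± 1.2 CPM at 6 weeks (0.12 ± 0.10, adjusted p = 0.520). SLC1A1, XLOC_015260, had 27.6 and 25.1 CPM at 6 weeks, 32.2 and 27.1 CPM at 12 weeks, and 41.5 and 51.9 CPM at 18 weeks (0.76 ± 0.14, adjusted p = 0.0077). SLC1A1, XLOC_015258, and SLC1A8A, XLOC_001512, rose by log2 fold changes of 0.56 (adjusted p = 0.0276) and 1.50 (adjusted p = 0.0379). SLC1A8A stood at 4.3 and 3.7 CPM at 18 weeks, against 1.5 and 1.2 CPM at 6 weeks.

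The calls of these 4 rises, more than their sizes, depended on single libraries. With an 18-, 12- or 6-week library left out the log2 fold change ran from 0.73 to 0.80 for SLC1A7(2OF2), 0.61 to 0.90 for SLC1A1 XLOC_015260, 0.43 to 0.67 for SLC1A1 XLOC_015258 and 1.36 to 1.66 for SLC1A8A. SLC1A7(2OF2) missed the threshold without 18-week library 2 or either 6-week library, with adjusted p up to 0.0824. SLC1A1 XLOC_015260 missed it without 18-week library 2 (adjusted p = 0.111) or 6-week library 2 (adjusted p = 0.0765). SLC1A1 XLOC_015258 was lost without 18-week library 2 or either 6-week library, with adjusted p up to 0.261, and SLC1A8A without any one of the 4, with adjusted p up to 0.216. Cone markers, 2 entries, summed to 493 to 658 CPM in bipolar cells at 18 weeks and 406 to 919 CPM at 6 weeks. Rods, the highest class of these SLC1A1 entries, made up 14.7 and 11.3% of cells at 18 weeks and 7.94 and 7.63% at 6 weeks. The part of cone or rod transcripts in the rises was not tested. SLC1A8A was also lost when bipolar cluster 10, which has a pigment epithelium marker among its leading genes, was left out (1.33, adjusted p = 0.0758).

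**Figure D4:**
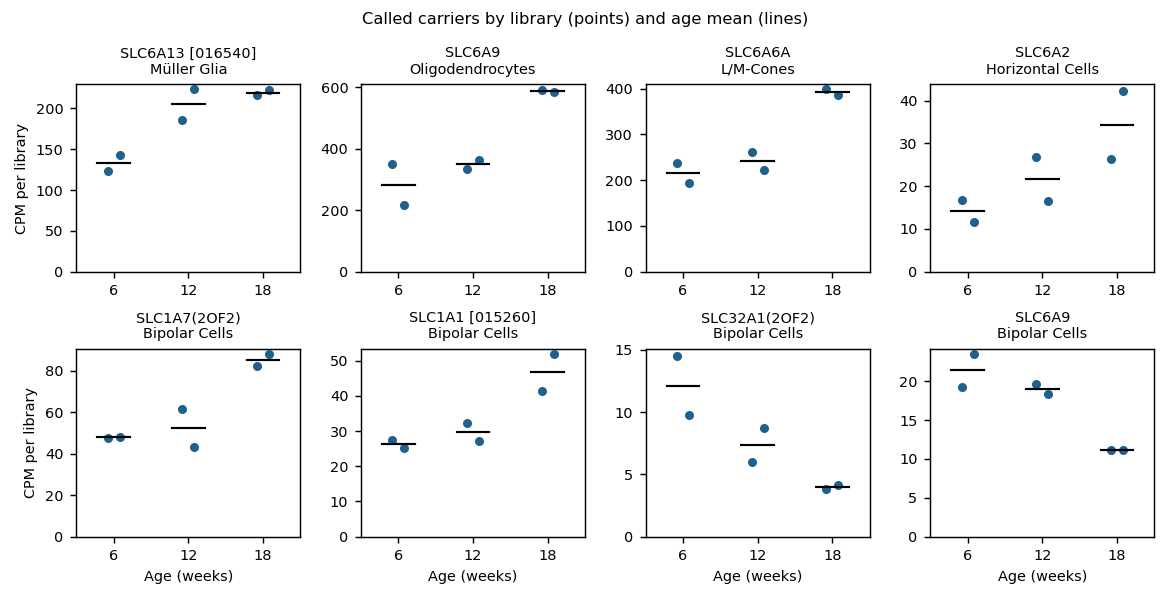
CPM in each library (points) at 6, 12 and 18 weeks for 8 called pairs of a carrier and a class, each panel with its own axis from 0. SLC6A13 in Müller glia rises to 217 and 222 CPM at 18 weeks, against 124 and 144 CPM at 6 weeks, and SLC32A1(2OF2) in bipolar cells falls to 3.9 and 4.1 CPM at 18 weeks, against 14.5 and 9.7 CPM at 6 weeks.

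Several falls were of inhibitory carriers, in classes where each was scarce. The glycine carrier SLC6A9 fell in bipolar cells, with 19.3 and 23.5 CPM at 6 weeks, 19.6 and 18.4 CPM at 12 weeks, and 11.1 and 11.2 CPM at 18 weeks (-1.01 ± 0.17, adjusted p = 0.00499). It fell in rods to 5.8 and 5.1 CPM at 18 weeks, against 14.9 and 16.4 CPM at 6 weeks (-1.49 ± 0.38, adjusted p = 0.0471), and in horizontal cells to 1.4 and 4.7 CPM at 18 weeks, against 13.2 and 9.4 CPM at 6 weeks (-1.89 ± 0.45, adjusted p = 0.0309). The bipolar call was lost without 18-week library 2 (adjusted p = 0.0582) or 6-week library 2 (adjusted p = 0.0611). The rod call was lost without any one of the 18- or 6-week libraries (adjusted p up to 0.279), and the horizontal cell call without either 18-week library or 6-week library 1 (adjusted p up to 0.209).

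Other falls in bipolar cells included those of SLC32A1(2OF2) and SLC17A6B. SLC32A1(2OF2), the vesicular GABA and glycine carrier, had 14.5 and 9.7 CPM at 6 weeks, 6.0 and 8.7 CPM at 12 weeks, and 3.9 and 4.1 CPM at 18 weeks (-1.67 ± 0.28, adjusted p = 0.00423, and 0.0522 without 6-week library 1). SLC17A6B, the ganglion cell vesicular glutamate carrier, had 3.0 and 2.1 CPM at 18 weeks, against 6.9 and 5.7 CPM at 6 weeks (-1.41 ± 0.32, adjusted p = 0.0196). SLC17A6B was lost without 18-week library 2 or either 6-week library, with adjusted p up to 0.202. In horizontal cells SLC6A15, a neutral amino acid carrier, had 1.4 and 0.43 CPM at 18 weeks, against 4.9 and 6.3 CPM at 6 weeks (-2.62 ± 0.65, adjusted p = 0.0345). It was lost without any one of the 18- or 6-week libraries (adjusted p up to 0.343).

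Set against the level of each carrier in the class where it was highest, the falls and the rises lay apart. All 16 falls at 18 against 6 weeks, 10 in classes and 6 in bipolar clusters, were in places with 0.149 to 3.91% of that level. The 13 rises, 10 in classes and 3 in clusters, were in places with 7.03 to 121% of it. The order was noticed after the values were seen, and it is a description of called pairs without a test.

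**Figure D5:**
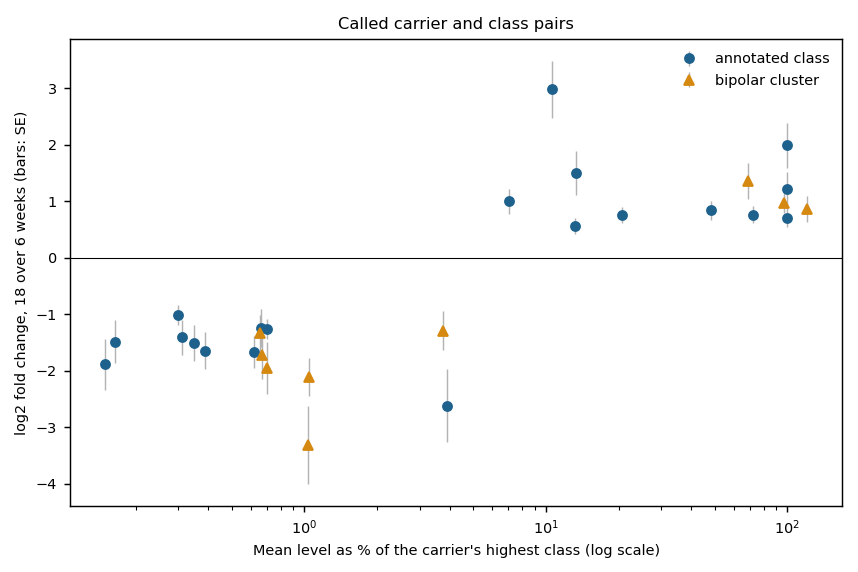
Log2 fold change at 18 over 6 weeks (vertical axis) of the 29 called pairs of a carrier and a class or bipolar cluster against the mean level there as a percentage of the carrier's highest class (horizontal axis, log scale). The 16 falls lie at 0.149 to 3.91% and the 13 rises at 7.03 to 121%.

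The shares of cells and several amacrine markers also differed between the ages. Amacrine cells, the main class of most of these carriers, made up 6.24 and 8.60% of cells at 18 weeks and 12.1 and 10.9% at 6 weeks. Ganglion cells made up 2.07 and 2.27% at 18 weeks and 3.82 and 3.10% at 6 weeks. Of 11 amacrine marker entries outside the transporter families, both 18-week libraries were below both 6-week libraries for 7 in bipolar cells, 4 in rods, 6 in Müller glia and 7 in horizontal cells, and above them for 1, 1, 0 and 2 in the same order of classes. The share of all genes lying apart in this way is not given, so these counts are a description only. The summed level of the 11 entries was 550 to 608 CPM in bipolar cells at 18 weeks and 502 to 604 CPM at 6 weeks, and 118 to 130 CPM in rods at 18 weeks and 136 to 229 CPM at 6 weeks. It was 384 to 406 CPM in Müller glia at 18 weeks and 501 to 608 CPM at 6 weeks, and 3547 to 3837 CPM in horizontal cells at 18 weeks and 2443 to 2663 CPM at 6 weeks. The most abundant entries in these sums were TCF4 (2 OF 2) in bipolar cells, rods and Müller glia and GAD1A in horizontal cells, its highest class. Without TCF4 (2 OF 2), left out after the values were seen, the other 10 entries summed to 104 and 94.9 CPM in bipolar cells at 18 weeks and 181 and 148 CPM at 6 weeks. They summed to 63.0 and 67.2 CPM in rods at 18 weeks and 162 and 87.2 CPM at 6 weeks, and to 213 and 196 CPM in Müller glia at 18 weeks and 291 and 264 CPM at 6 weeks. In each of these 3 classes both 18-week sums were then below both 6-week sums. Most of this sum in Müller glia was 1 entry, PVALB5, with 182 and 175 CPM at 18 weeks and 226 and 225 CPM at 6 weeks. TCF4 (2 OF 2) itself went the other way in bipolar cells, and with it the bipolar sums of the ages overlapped. It had 446 and 513 CPM there at 18 weeks and 423 and 354 CPM at 6 weeks. In rods it had 55.2 and 63.2 CPM at 18 weeks and 66.3 and 48.6 CPM at 6 weeks, which overlap. In Müller glia it was lower, with 193 and 188 CPM at 18 weeks and 317 and 237 CPM at 6 weeks. Without GAD1A the horizontal cell sum was 1238 and 1321 CPM at 18 weeks and 978 and 972 CPM at 6 weeks, nearly all of it GAD1B. GAD1A and GAD1B were the 2 entries above in horizontal cells, so this sum does not show how the scarcer entries moved. The 7 entries below were all among these scarcer ones. PVALB5, the most abundant of them at 6 weeks, had 5.28 and 3.84 CPM at 18 weeks and 12.7 and 12.97 CPM at 6 weeks. The entries at 0 were PAX6(2OF2) in bipolar and horizontal cells and TFAP2B, XLOC_011014, in Müller glia, which had 70 and 93 UMIs in the whole series. Ganglion cell markers, 3 entries, summed to 60.04 to 86.3 CPM in bipolar cells at 18 weeks and 64.1 to 64.5 CPM at 6 weeks. Their part in the falls was not tested.

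Within the bipolar clusters 28 carriers gave 194 pairs, of which 3 rose and 6 fell at 18 against 6 weeks (4.64%), against 2.01% of all pairs of genes and clusters, 0.802% higher and 1.21% lower. All the rises were of SLC1A7(2OF2). In cluster 7 it had 100.1 and 185 CPM at 18 weeks, against 84.1 and 70.5 CPM at 6 weeks (0.87 ± 0.23, adjusted p = 0.0349), and in cluster 8 it had 120.3 and 121 CPM at 18 weeks, against 59.5 and 58.2 CPM at 6 weeks (0.96 ± 0.18, adjusted p = 0.00644). In cluster 10 it had 86.9 and 96.2 CPM at 18 weeks, against 32.8 and 37.0 CPM at 6 weeks (1.36 ± 0.32, adjusted p = 0.035). The cluster 7 change was 0.33 without 18-week library 2 (adjusted p = 0.762), and that of cluster 8 was lost without either 6-week library (adjusted p of 0.0529 and 0.0585). Cluster 7 was also lost without either 6-week library, and cluster 10 without any one of the 18- or 6-week libraries (adjusted p up to 0.269 and 0.242).

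Of the cluster falls, 3 were of SLC1A2B. This gene, the Müller glial glutamate carrier, had 85.8 and 72.6 CPM at 6 weeks, 46.4 and 54.4 CPM at 12 weeks, and 16.5 and 21.5 CPM at 18 weeks in cluster 19 (-2.12 ± 0.34, adjusted p = 0.000413), with the 3 ages apart. This call held with each library left out. SLC1A2B fell to 25.6 and 6.2 CPM at 18 weeks in cluster 13, against 32.9 and 63.9 CPM at 6 weeks (-1.71 ± 0.42, adjusted p = 0.0399), and to 153 and 91.6 CPM at 18 weeks in cluster 25, against 365 and 185 CPM at 6 weeks (-1.29 ± 0.34, adjusted p = 0.0244). Cluster 13 was lost without 18-week library 2 (adjusted p = 0.446) or 6-week library 2 (adjusted p = 0.324), and cluster 25 without 18-week library 2 (adjusted p = 0.525) or 6-week library 1 (adjusted p = 0.447). The 6 Müller marker entries summed to 2504 to 2832 CPM in cluster 19 at 18 weeks and 1843 to 2219 CPM at 6 weeks. Without GLUL (2 OF 2), which made up most of that sum, they had 363 and 230 CPM at 18 weeks and 351 and 512 CPM at 6 weeks, and AQP1A.1, XLOC_015295, had 37.8 and 33.1 CPM at 18 weeks and 49.9 and 28.6 CPM at 6 weeks. All 6 summed to 538 to 848 CPM in cluster 13 at 18 weeks and 637 to 820 CPM at 6 weeks, and to 922 to 1254 CPM in cluster 25 at 18 weeks and 974 to 1193 CPM at 6 weeks.

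The comparisons with the 12-week libraries gave fewer calls. At 12 against 6 weeks 0 of 283 carrier pairs were called by edgeR, with 22 at an unadjusted p under 0.05 and 0 called by DESeq2, against 0.122% of all pairs. At 18 against 12 weeks 0 rose and 4 fell (1.41%), against 0.493% of all pairs, 0.308% of them lower, with 44 at an unadjusted p under 0.05. The falls included those of SLC17A6B in bipolar cells (-1.50, adjusted p = 0.0359) and SLC6A9 in bipolar cells (-0.84, adjusted p = 0.0366). Without 18-week library 2 both of these calls were lost (adjusted p of 0.341 and 0.268). SLC17A6B was also lost without any one of the 12- or 6-week libraries, and SLC6A9 without 18-week library 1, either 12-week library or cluster 10 (adjusted p = 0.0503 without the cluster). In the bipolar clusters 0 pairs were called in either comparison, with 13 at an unadjusted p under 0.05 at 12 against 6 weeks and 35 at 18 against 12 weeks, against 0.118% and 0.397% of all pairs called. DESeq2 called 0 in both.

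A call in one class and none in another does not show that classes differ, so the age change of each carrier in a class was set against its mean change in the other tested classes of the same libraries. By limma 0 of 283 pairs passed at 18 against 6 weeks, with 48 at an unadjusted p under 0.05 and a lowest adjusted p of 0.0979. Of the 20 called pairs, 14 had an unadjusted p under 0.05, and their adjusted p ran from 0.126 to 0.815.

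In the sum of all cells, which moves with the mix of cell types as well as with levels in a type, 53 carriers were tested. At 18 against 6 weeks 3 rose and 1 fell (7.55%), against 3.63% of all genes, 1.91% higher and 1.72% lower. In such a sum fewer cells of a type and less RNA per cell cannot be told apart. The rod gene SLC1A1, XLOC_015260, had 20.2 and 16.9 CPM at 6 weeks, 23.0 and 25.7 CPM at 12 weeks, and 38.1 and 45.4 CPM at 18 weeks (1.14 ± 0.12, adjusted p = 0.0109). It was lost without either 6-week library (adjusted p of 0.0917 and 0.11). With the class shares of UMIs held fixed it rose by 0.70 (adjusted p = 0.0257). Rods made up 14.7 and 11.3% of cells at 18 weeks and 7.94 and 7.63% at 6 weeks. Within rods this entry averaged 214 ± 46.3 CPM at 18 weeks and 136 ± 29.5 CPM at 6 weeks. That change did not pass the edgeR test (0.69 ± 0.21, adjusted p = 0.111).

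SLC1A1, XLOC_015258, rose in the sum by 0.85 (adjusted p = 0.0444) and SLC6A1L, the horizontal cell gene, by 0.63 (adjusted p = 0.0492). SLC32A1 (1 OF 2), XLOC_015961, fell to 14.9 and 17.9 CPM at 18 weeks, against 31.0 and 33.0 CPM at 6 weeks (-0.99 ± 0.16, adjusted p = 0.0304). Held at fixed class shares of UMIs, these 3 changes were 0.34, 0.17 and -0.22 and did not pass (adjusted p of 0.32, 0.297 and 0.21). All 3 were lost without any one of the 18- or 6-week libraries, and SLC6A1L also without either 12-week library. The sum gave 0 calls at 12 against 6 weeks, with 7 at an unadjusted p under 0.05 and 0 by DESeq2, where 0% of all genes were called. It gave 0 at 18 against 12 weeks, with 11 at an unadjusted p under 0.05 and 2 by DESeq2, where 0.0686% of all genes were called.

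Enzymes and other carriers of the same transmitters, 41 entries, gave 308 pairs of an entry and a class, of which 6 rose and 10 fell at 18 against 6 weeks (5.19%, median log2 fold change -0.06), against 2.36% of all pairs. Unlike the carrier calls, these calls were not checked with a library left out, by DESeq2 or by thinning. How far they depend on single libraries is therefore not known. Horizontal cells held several. GAD1A, which makes GABA, had 2309 and 2515 CPM at 18 weeks, against 1685 and 1471 CPM at 6 weeks (0.54, adjusted p = 0.0118). ABAT, which breaks GABA down, had 149 and 196 CPM at 18 weeks, against 285 and 258 CPM at 6 weeks (-0.72, adjusted p = 0.00744). CDO1, an enzyme of taurine synthesis, had 174 and 159 CPM at 18 weeks, against 81.8 and 56.4 CPM at 6 weeks (1.21, adjusted p = 0.00488), and GLUD1B rose by 0.58 (adjusted p = 0.0495).

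In Müller glia GLDC, which breaks glycine down, had 234 and 234 CPM at 18 weeks, against 119 and 130 CPM at 6 weeks (0.90, adjusted p = 0.00379), while the creatine kinase CKBB fell by 0.66 on the log2 scale (adjusted p = 0.00877). Glutamine synthetase, GLUL (2 OF 2), the entry that led the Müller marker sum in oligodendrocytes, rose there (0.85, adjusted p = 0.0487) and in bipolar cells (0.56, adjusted p = 0.0227). In bipolar cells the glutaminase GLSB fell by 0.71 (adjusted p = 0.0102) and GAMT, which makes creatine, by 0.67 (adjusted p = 0.0219). The GABA-synthesizing GAD1B fell in bipolar cells, where it had 19.3 and 12.3 CPM at 18 weeks, against 46.0 and 30.9 CPM at 6 weeks (-1.39, adjusted p = 0.00243). In rods GAD1B fell by 1.58 (adjusted p = 0.0406), GAD2 by 1.16 (adjusted p = 0.0203) and ABAT by 1.41 (adjusted p = 0.0265). In Müller glia GAD2 fell by 1.60 (adjusted p = 0.0439). The rod levels of GAD1B were 5.8 and 7.3 CPM at 18 weeks, against 27.1 and 13.7 CPM at 6 weeks. GAD2 had 6 UMIs in each 18-week Müller library, and 17 and 28 in the 6-week ones. In their highest classes, starburst and GABAergic amacrine cells, GAD1B and GAD2 averaged 3233 and 1010 CPM. Both are among the amacrine marker entries above, and the part of amacrine transcripts in these falls was not tested. TPH1A had 0 UMIs in both 18-week S-cone libraries and 10 in each 6-week one, and its fall had adjusted p = 0.0235. At 12 against 6 weeks 0 of the 308 pairs were called by edgeR, against 0.122% of all pairs, and at 18 against 12 weeks 0 rose and 2 fell (0.649%), against 0.493% of all pairs, GAD1B in bipolar cells and ABAT in horizontal cells.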

How the data were processed

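The deposited files, a matrix of counts and tables of cells and genes, held UMI counts per gene and cell that the authors made with Cell Ranger 7.0.1 on a custom transcriptome (a GRZ assembly with the NCBI annotation merged with long-read transcripts). The authors kept cells above 1000 and below 20000 transcripts and clustered and named them with Monocle3. Whether doublets were removed is not given in the sources used here, and no doublet caller was run. Groups followed the age in the labels.

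Counts were summed per library and class in every class and bipolar cluster with at least 10 cells in each library. Each sum was tested with edgeR 4.0.16 (R 4.3.3): TMM, filterByExpr by age, glmQLFit and glmQLFTest on all 6 libraries with age as a factor of 3 levels, and Benjamini-Hochberg adjustment over all genes of the fit. The regression over cells that the study used was not followed, because libraries and not cells are the replicates. Differences of age change used limma 3.58.1 on log2 CPM after TMM with a prior count of 2. The fixed cell mix weighted the CPM of each tested class by its share of the UMIs of these classes over all libraries. That weighted level was tested with limma on a log2 scale, without TMM and with another small constant added. Class sums ran from 118320 to 7504888 UMIs per library, which sets the precision of each level. The steps were tested on simulated data.

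Alternatives were DESeq2 1.42.0, RLE size factors, no filter on low counts, the replicate number as a block, 18- and 6-week libraries only, thinning to 1000 UMIs per cell, a fixed cell mix and each library left out. These alternatives were read for the carriers only. Leaving out cluster 10 was added after seeing the data. The members and lists were chosen with earlier results of these data known. Carriers were named if called (the rule took the 30 pairs of largest change, and further called pairs are given too), if they reached 100 CPM in a class, or if they define a transmitter. Of the 63 entries, 45 were matched by symbol or locus name to RefSeq (NfurGRZ-RIMD1), used for names and gene order. Several entries share a name (SLC1A1, SLC1A6, SLC1A8A, SLC6A4B, SLC6A8, SLC6A13, SLC6A13(1OF2) and SLC32A1 (1 OF 2)), and reads of near-identical copies may be divided between them. Counts cover all 63 entries, and the values of some of them are not reported here.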

Additional observations from a re-analysis of the deposited data

Results flagged for a closer look

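The pigment epithelium (51 cells) and red blood cell (28 cells) classes were too small to test and enter no comparison, and 3 carriers stood above every tested class in them with the lower limit of their counting interval. SLC6A6A was above its highest tested class by its level alone, with 682 CPM (578 to 799) in the pigment epithelium, against 587 CPM in glycinergic amacrine cells. SLC6A4B, XLOC_001920, had 28 of 222995 UMIs in the pigment epithelium cells, or 126 CPM (exact Poisson 95% interval 83.4 to 181), spread over 6 libraries. Its highest tested class was bipolar cells with 2.54 CPM. SLC6A4A had 14 UMIs there, or 62.8 CPM (34.3 to 105), against 3.73 CPM in bipolar cells. SLC18A2 had 10 of 140632 UMIs in the red blood cells, or 71.1 CPM (34.1 to 131), against 18.0 CPM in GABAergic amacrine cells. Counts of 0 would have allowed up to 13.5 CPM in the pigment epithelium and 21.3 CPM in the red blood cells. The intervals cover counting error alone.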

How the results depend on the processing

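Of 37 calls, 36 were kept with RLE size factors, 35 with no filter on low counts, 33 with the replicate block and 34 without either 12-week library. Fewer were kept without an 18-week library (18 and 11) or a 6-week library (14 and 14), and 0 changed direction. SLC1A2B in cluster 19 at 18 against 6 weeks kept its call under every alternative that gave a value. Thinning kept 12 of 32 calls that could be fitted, and DESeq2 17 of 26 with an adjusted p. Among class and cluster pairs named above at 18 against 6 weeks, thinning lost SLC6A2 in horizontal cells and SLC6A9 in rods. It also lost SLC6A9, SLC1A8A and SLC1A1 XLOC_015258 in bipolar cells, SLC1A7(2OF2) in clusters 7, 8 and 10 and SLC1A2B in clusters 13 and 25. DESeq2 lost SLC17A6B, SLC1A8A and SLC1A1 XLOC_015258 in bipolar cells, and SLC6A9 in rods and oligodendrocytes. Of 20 calls over classes at 18 against 6 weeks, DESeq2 gave 13, thinning 8 and no filter 43, and with a library left out the count ran from 6 to 31. At 12 against 6 weeks (0 calls) no filter gave 7, the block 1 and leaving out a library 0 to 1. At 18 against 12 weeks (4 calls) DESeq2 and thinning each gave 1, no filter 18, the block 7 and leaving out a library 2 to 5. In the bipolar clusters at 18 against 6 weeks (9 calls) DESeq2 gave 1, thinning 3, no filter 18 and leaving out a library 5 to 17. At 12 against 6 weeks in the clusters (0) no filter gave 2 and leaving out a library 0 to 3. At 18 against 12 weeks (0) the fit of 4 libraries, the block and thinning each gave 1, no filter 3 and leaving out a library 1 to 4. In the sum of all cells DESeq2 gave 8 and no filter 2 at 18 against 6 weeks (4 calls), with 0 to 6 when a library was left out, and DESeq2 gave 2 at 18 against 12 weeks (0). With the cell mix held fixed 5 were called at 18 against 6 weeks, 1 of them among the 4. The cause of these differences was not tested, except that fewer libraries leave fewer degrees of freedom. The replicate numbers were not used to pair libraries, since same-numbered libraries deviated together at 12 and 18 weeks (r = 0.579 over 11299 genes) but oppositely at 6 and 12 weeks (-0.381) and at 6 and 18 weeks (-0.419). With that block the count of class calls at 18 against 6 weeks was again 20, and SLC6A9 in rods (adjusted p = 0.057) and in oligodendrocytes (adjusted p = 0.0502) lost its call. Where an arm is left with 1 library, that library is assumed to vary like the others. Depth limits the rare carriers most.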

Other observations

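A small set of GABAergic amacrine cells carried monoamine genes together. In the 34 cells with at least 2 UMIs of the vesicular monoamine carrier SLC18A2, the serotonin carrier SLC6A4B (XLOC_024257) was found in 14 (41.2%), against 15 of 1781 other cells of the class (0.842%). TPH1A, which makes serotonin's precursor, was found in 21 of 34 (61.8%), against 245 of 1781 (13.8%), and the amine-forming enzyme DDC in 8 (23.5%), against 36 (2.02%). The dopamine carrier SLC6A3 was found in 0 of the 34 and 8 of the 1781 cells, and TH, the first enzyme of dopamine synthesis, in 1 and 4. GAD1B was found in 31 of the 34 (91.2%), against 1381 of 1781 (77.5%). The 34 cells were also deeper, with a median of 4850.5 UMIs, against 2840 in the others, and the part of depth in these shares was not tested. Of the 17 cells with at least 3 SLC18A2 UMIs, 2 and 6 lay in the 6-week libraries, 1 and 8 in the 12-week libraries and 0 in both 18-week libraries. The class held 401 and 386 cells in the 6-week libraries, 272 and 370 at 12 weeks and only 162 and 224 at 18 weeks. A change of these cells with age was not tested.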
